A study of Mus musculus with 2 samples.

Results

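The comparison is between liver myeloid cells of 1 Lyz2Cre/+.Egr2fl/fl mouse and 1 Egr2fl/fl mouse, both on normal diet (ND), and asks what differs in these cells when the floxed Egr2 gene meets a Cre recombinase made by myeloid cells. Cells were taken from the count matrix by the mouse their barcode is assigned to, barcodes called doublets were left out, and cells with more than 25% of their counts from mitochondrial genes were dropped. This kept 1723 cells of the Egr2fl/fl mouse (the control mouse below) and 1590 cells of the Lyz2Cre/+.Egr2fl/fl mouse (the Cre mouse), 3313 of the 15384 cells that passed the same steps in all 4 mice of the experiment. The 12071 other cells come from 1 mouse of each genotype fed CDA-HFD, a high-fat diet without choline and with set amino acids that gives mice steatohepatitis, and serve here only as a second pair of the same genotypes.

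The study measured mRNA in single liver cells sorted as CD45.2-positive and CD11b-positive, with T cells, B cells, NK cells and Siglec-F-positive cells stained for removal. Egr2 is floxed on both copies in all 4 mice, and the Cre mice carry in addition 1 Lyz2 copy with Cre knocked into it. C57BL/6J mice were among the animals of the study, and the strain background of the floxed and Cre lines is not given. Males of 6 to 12 weeks were put on CDA-HFD, and the age of the ND mice is not given separately. Cre from the Lyz2 locus is made in macrophages, neutrophils and monocytes to differing degrees, so the share of cells with a recombined Egr2 gene need not be equal among cell types. All mice were tagged with hashtags and pooled into 1 cartridge, with 3000 cells loaded from each ND mouse and 9000 from each CDA-HFD mouse. With 1 mouse per group no difference below has a replicate check, and genotype cannot be told apart from any other difference between the 2 mice.

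Egr2 encodes a zinc-finger transcription factor of the early growth response family, known for its role in hindbrain and Schwann cell development and, in macrophages, for being induced by interleukin-4. Kupffer cells are the resident macrophages of the liver sinusoids, marked in mice by Clec4f, Vsig4 and Timd4, and clear particles, iron and bacteria from the blood. Interferon gamma, made by T and NK cells, induces IRF1 in macrophages and, through CIITA, raises the MHC class II genes by which peptides are shown to helper T cells.

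The summed counts were 32029953 in the control mouse and 27840300 in the Cre mouse, with a median of 16459 and 15864.5 counts per cell and a lowest cell of 3136 and 3126. No barcode was shared by the 2 mice. Levels are given as counts per 1000000 counts (CPM) of the summed counts of a population. Each ratio is the Cre mouse over the control mouse with an exact 95% interval in brackets, which covers counting error and says nothing of the spread between mice. The labels do not state whether the counts are reads or molecules, and if they are reads the intervals do not cover counting error in full. A gene was tested when it had at least 100 counts over both mice in a population, and "higher" or "lower" in a count of genes means a ratio past 1.5-fold in that direction.

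Egr2 itself was lower in the Cre mouse, from 13.3 CPM (12.0 to 14.6) to 5.85 CPM (4.99 to 6.83) over all cells, a ratio of 0.441 (0.366 to 0.530). These levels rest on 425 counts in 114 cells and 163 counts in 47 cells. The difference was larger in Clec4f-positive cells, where Egr2 had 109 counts in 42 cells of the control mouse and 19 counts in 16 cells of the Cre mouse, 5.62 CPM against 0.983 CPM and a ratio of 0.175 (0.101 to 0.286). As a mean of the CPM of single cells the Kupffer gate ratio was 0.288. Among Cxcr2-positive cells, 51 counts in 14 cells stood against 6 counts in 4 cells, a ratio of 0.120, or 0.0627 without cells of more than 1 gate. The narrower set of neutrophil-like cells described below held 2 and 3 Egr2 counts, and a ratio of 0.880 (0.101 to 10.5) that says nothing at this depth. In Cd209a-positive cells Egr2 stood at 21.0 CPM in the control mouse and 18.5 CPM in the Cre mouse, a ratio of 0.883 (0.634 to 1.22) that does not tell the mice apart at this depth. In the cells outside the 3 gates the ratio was 0.728 (0.550 to 0.955), but 1 cell held 40.3% of the Egr2 counts of the Cre mouse, and the ratio was 1.17 in cells with at least 90% of their hashtag counts from their own tag. Whether the counted end of the Egr2 transcript lies in the deleted part of the gene is not given in the sources used here, so these counts check the genotype labels only if it does.

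Lyz2, the lysozyme gene whose coding start is replaced by Cre on 1 copy, was lower by a similar factor in each population of the Cre mouse. It fell from 8915 to 4016 CPM over all cells, 0.450 (0.447 to 0.454), and the ratio was 0.460 in the Kupffer gate, 0.403 in Cxcr2-positive cells, 0.434 in Cd209a-positive cells and 0.527 outside the gates. Lyz1, the near-identical gene beside it, went from 217 to 116 CPM in the Kupffer gate, 0.536 (0.509 to 0.564), while its ratio outside the gates was 1.07. Reads of Lyz1 and Lyz2 can be assigned to the wrong copy, so their separate levels are uncertain. Over all cells and in the Kupffer gate both Egr2 and Lyz2 were thus lower in the cells labelled as Lyz2Cre/+.Egr2fl/fl.

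**Figure D1:**
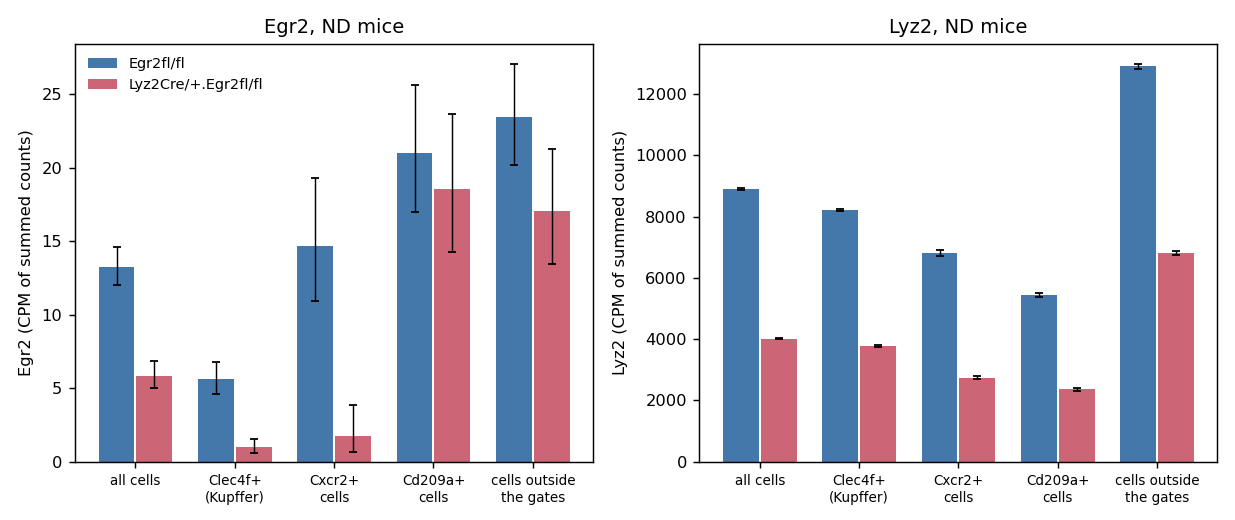
Level of Egr2 and Lyz2 in CPM in the ND control and Cre mouse, for all cells, each gate and the cells outside the gates, with exact 95% counting intervals. Egr2 is lowest in Clec4f-positive cells of the Cre mouse at 0.983 CPM, and Lyz2 is lower in the Cre mouse in each population drawn.

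The relatives of Egr2 did not move as a group over all cells, where 1 of 5 tested genes of the Egr and Nab list was lower and that one was Egr2. Egr1, an immediate early gene, stood at 67.6 and 72.0 CPM, and Egr3 had a ratio of 0.955 (0.782 to 1.17). Nab1 and Nab2, corepressors that bind Egr proteins, had ratios of 0.835 and 0.869. Within gates Egr1 took both directions, with 52.4 CPM in the control mouse and 34.7 CPM in the Cre mouse in the Kupffer gate, 0.663 (0.601 to 0.732), and 122 and 206 CPM in Cd209a-positive cells, 1.69 (1.51 to 1.89). Neither Egr1 ratio stayed past 1.5-fold under each alternative, with 0.788 in the Kupffer gate without cells that held hepatocyte list counts and 1.35 in Cd209a-positive cells with at least 90% of hashtag counts from their own tag. Egr3 was also higher in Cd209a-positive cells, at 6.27 against 22.9 CPM and on 29 against 79 counts. Of the genes within 1 Mb of Egr2, Jmjd1c had a ratio of 1.25, Nrbf2 1.20, Reep3 1.01, Ado 0.978 and Arid5b 0.791 over all cells, all within 1.5-fold. Itgax, which codes for CD11c, stood at 61.1 and 48.9 CPM (0.801), and Siglecf at 3.12 and 2.73 CPM.

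The gates split the cells by 1 gene each: Clec4f for Kupffer cells, Cxcr2 for neutrophils and Cd209a for a dendritic cell subset. Clec4f-positive cells made up 45.6% of the control mouse (785 cells, 43.2% to 47.9%) and 54.0% of the Cre mouse (858 cells, 51.5% to 56.4%), which is 8.40 points more (4.96 to 11.8). Their median depths were 25434 and 22938 counts, and 26 and 34 cells of them held fewer than 5000 counts. Cxcr2-positive cells were 14.1% (243 cells) and 19.2% (305 cells), or 5.08 points apart (2.50 to 7.66). At 5000 counts per cell that difference was 1.55 points, with 176 and 239 of all cells too shallow to be thinned. Of those left out, 101 and 163 were Cxcr2-positive, so the 1.55 points mix the loss of these cells with the change in depth. Cd209a-positive cells were 13.5% (233 cells) and 11.9% (190 cells), and the change was -1.57 points (-3.88 to 0.745). A cell could pass more than 1 gate, as 111 and 101 of the Clec4f-positive cells did.

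For 27 genes counted in at least 20 cells the matrix holds no value above 0 and below 5, and Clec4f, Vsig4, S100a9, H2-Ab1, Cd74 and Retnlg are among them. Their lowest value differs, with 5 for Vsig4, 8 for Clec4f and 22 for S100a9. A share of cells with a count of these genes, the Clec4f gate included, thus hides lower background, and their sums lack it. A further 7 genes, Alb among them, show the same in fewer than 20 cells. S100a8, which is not among them, was counted in 87.1% and 84.1% of Clec4f-positive cells. With this limit the Kupffer gate matched its label in both mice. Timd4, a receptor for dying cells, was counted in 95.3% and 94.5% of Clec4f-positive cells against 4.60% and 3.06% of the cells outside the gates, whose median depths were 11230 and 10441 counts. Vsig4, a complement receptor, was counted in 97.7% and 97.4% of the gate and in 1.02% and 1.95% outside it. The Cxcr2 gate did not match as well. S100a9, a granulocyte protein, was counted in 46.1% of its cells in the control mouse and 64.3% in the Cre mouse, while the MHC class II gene H2-Ab1 was counted in 52.7% and 32.1% and Clec4f in 31.7% and 25.2%. Its cells are therefore called Cxcr2-positive cells below and not neutrophils. Their median depths were 7974 and 4786 counts, against 17812 and 16439 counts in Cd209a-positive cells.

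Kupffer cells of the Cre mouse carried less mRNA of interferon gamma-induced genes, of MHC class II genes and of Il1b, and more of a pair of CD209 lectins, Pf4, Trem2 and several secreted hepatocyte proteins. Of 11061 genes tested in the gate, 432 were higher (3.91%) and 254 lower (2.3%) in the Cre mouse, and the median ratio of all of them was 1.04. With TMM scaling (libraries scaled by trimmed means) 333 were higher and 318 lower. The lower genes included Serpina3g, a serine protease inhibitor induced in activated leukocytes, its relative Serpina3f, and Il1b, the cytokine interleukin-1 beta. Serpina3g went from 98.9 to 12.3 CPM, 0.124 (0.108 to 0.142), and was counted in 36.9% and 7.58% of the cells. Serpina3f went from 47.5 to 9.32 CPM, 0.196 (0.166 to 0.231), and was at 0.311 as a mean of the CPM of single cells. Il1b went from 1738 to 534 CPM, 0.307 (0.300 to 0.314). Il1b was counted in 96.1% and 85.9% of Kupffer gate cells, and in 87.4% and 65.5% with each cell thinned to 5000 counts.

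MHC class II genes were lower as a set in the Kupffer gate, with 7 of 10 tested members past 1.5-fold, a median ratio of 0.573 and a summed level of 27778 CPM in the control mouse and 13838 CPM in the Cre mouse. H2-Eb1, a beta chain of the peptide-binding pair, fell from 4168 to 1779 CPM, 0.427 (0.422 to 0.432). H2-Aa fell from 5522 to 2591 CPM and H2-Ab1 from 5728 to 2808 CPM. Cd74, the invariant chain that guides class II molecules to the endosome, fell from 11048 to 5782 CPM, 0.523 (0.520 to 0.527). Ciita, the coactivator that switches these genes on, fell with them from 68.5 to 23.0 CPM, 0.336 (0.301 to 0.375), and its share of cells with a count went from 48.4% to 21.4%. H2-DMb1, which helps load peptides, was at 515 and 326 CPM, and its partner H2-DMa, at 696 and 503 CPM, did not pass 1.5-fold (0.723).

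A list of 42 interferon gamma-induced genes, written after values of these genes had been seen, held 17 lower and 0 higher among 37 tested in the Kupffer gate, with a median ratio of 0.699. Irf1, a transcription factor that interferons induce, was at 237 CPM in the control mouse and 139 CPM in the Cre mouse, 0.588 (0.560 to 0.617). Guanylate-binding proteins and immunity-related GTPases, which attack vacuoles that hold microbes, followed: Gbp2b was at 351 and 144 CPM (0.411), Gbp5 at 61.6 and 27.3 CPM (0.444), Tgtp2 at 124 and 51.2 CPM (0.413) and Iigp1 at 149 and 77.5 CPM (0.521). Cxcl10, a chemokine that draws T cells, was at 84.0 and 38.6 CPM (0.459, or 0.293 without cells of more than 1 gate). Other members moved little, among them B2m (9042 and 8144 CPM, 0.901), the proteasome activator Psme1 (0.946) and the Fc receptor Fcgr1 (348 and 343 CPM, 0.986). Tgtp1 and Tgtp2, and several Gbp genes, are close copies of each other, so counts of a single copy are uncertain.

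Type I interferon-induced genes did not share this direction in the Kupffer gate. Of the 24 genes of a list also written after values had been seen, 3 were higher and 0 lower in the Kupffer gate, with a median ratio of 1.1. The 3 were Usp18, a brake on type I signalling (18.2 and 30.7 CPM, 1.69), Oasl1 (23.0 and 37.9 CPM, 1.65) and Ifit2 (54.8 and 83.5 CPM, 1.52, and 1.47 with TMM scaling). A further list of 18 interferon-stimulated genes, which mixes genes of both kinds, had 2 higher and 3 lower in the gate and a median ratio of 1.05. Elsewhere it had 4 of 18 lower over all cells (median 1.08), 6 higher and 3 lower of 15 in Cxcr2-positive cells (1.33), 6 of 17 lower in Cd209a-positive cells (0.860) and 8 lower and 1 higher of 18 outside the gates (0.703). The receptor chains of interferon gamma were within 1.5-fold, with Ifngr1 at 483 and 437 CPM (0.904) and Ifngr2 at a ratio of 0.854. Ifng had no count in Clec4f-positive cells. Over all cells Ifng had 37 counts in the control mouse and 22 in the Cre mouse, 0.684 (0.384 to 1.19), which does not tell the mice apart at this depth.

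**Figure D2:**
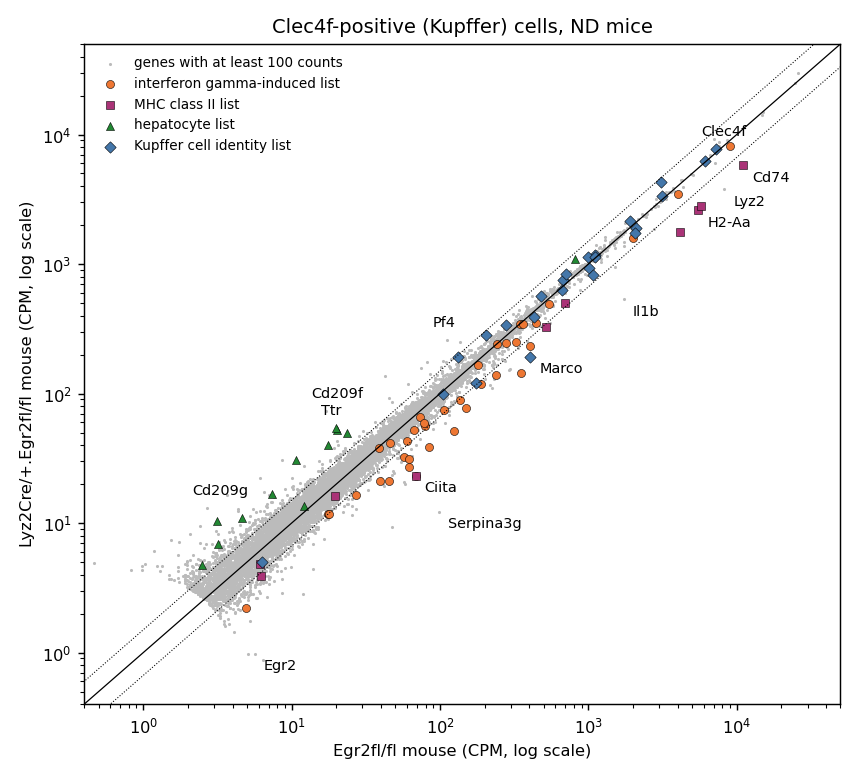
Level of each tested gene in Clec4f-positive cells of the ND control mouse and of the ND Cre mouse, both axes in CPM on a log scale, with dotted lines at 1.5-fold. All 10 MHC class II and all 37 interferon gamma-induced genes tested lie below the diagonal, and Cd209f and Pf4 above it.

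Inflammatory cytokine and feedback genes were lower in part in the Kupffer gate, with 6 of 14 tested lower, 1 higher and a median ratio of 0.696. Beside Il1b, Il6 was at 17.7 and 10.8 CPM (0.608), Il10, an anti-inflammatory cytokine, at 8.98 and 4.50 CPM (0.502), and Nfkbiz, a nuclear partner of NF-kB, at 47.4 and 23.6 CPM (0.498). The lower value of Ptgs2, the inducible cyclooxygenase (0.476), rests on 1 control cell with 55.9% of its counts. Tnf did not move with them, at a ratio of 0.883 (0.698 to 1.12). Il6 was at 0.365 and Ptgs2 at 0.139 in the cells without hepatocyte list counts described below. The higher gene was Osm, at 1.91 and 3.47 CPM, on 37 and 67 counts, and its ratio was 0.792 in those cells.

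Among the chemokines tested in the gate, 4 of 13 were lower and 3 higher, with a median ratio of 0.891. Cxcl2, which recruits neutrophils, was at 57.3 and 20.9 CPM, 0.365 (0.325 to 0.410), in 30 and 22 cells, but its low values are among those set to 0. Cxcl13, a B cell attractant, was at 552 and 350 CPM (0.635) and Ccl4 at 135 and 86.8 CPM (0.644), while 1 control cell held 41.2% of the Ccl12 counts. Pf4, platelet factor 4, was higher at 111 and 260 CPM, 2.33 (2.22 to 2.45), and was counted in 39.7% and 55.5% of the cells. Ccl7 (1.56) and Ccl9 (1.53) were the other higher members, at 1.32 with at least 90% of hashtag counts from the own tag and at 1.48 with TMM scaling.

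Immediate early genes, which are switched on by stimulation and also by tissue dissociation, were lower or level, with 5 of 17 tested lower, 0 higher and a median ratio of 0.734. Dusp1, a phosphatase that shuts off MAP kinases, was at 291 and 153 CPM (0.526), Btg2 at 296 and 156 CPM (0.527), Fos at 237 and 143 CPM (0.604) and Nr4a1 at 51.1 and 31.6 CPM (0.618). The fifth was Egr1. The part of these genes in the other differences of the gate was not tested.

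The Kupffer cell identity genes were near level between the mice. Of 24 tested members 1 was lower and 0 higher, the median ratio was 1.04, and the summed level was 35207 CPM in the control mouse and 36963 CPM in the Cre mouse. The most abundant member is Clec4f, at 7260 and 7774 CPM, whose count sets the gate, so the sum rests in part on that choice. Vsig4 had a ratio of 1.07, Timd4 of 0.947, Cd5l of 1.02 and Nr1h3, the nuclear receptor that sets Kupffer identity, of 0.901. The exception was Marco, a scavenger receptor for bacteria, at 405 and 192 CPM, 0.474 (0.456 to 0.493). Marco was counted in 45.6% of Kupffer gate cells of the control mouse and 28.4% of the Cre mouse, against 1.36% and 1.39% outside the gates. With each cell thinned to 5000 counts these shares were 32.4% and 17.7% in the gate and 0.746% and 0.627% outside it. Id1 was at a ratio of 0.680 and Id3, which guards Kupffer identity, at 0.762. Markers of other blood cells moved with the gate. Mature neutrophil genes had 4 of 12 higher and 1 lower, with a median ratio of 1.33 and a summed level of 312 and 463 CPM. The most abundant were S100a8, at 145 and 195 CPM, and S100a9, at 42.7 and 137 CPM in 8 and 10 cells. The S100a9 ratio was 3.20, but 0.579 without cells of more than 1 gate, 0 in cells without hepatocyte list counts and 24.2 with at least 90% of hashtag counts from the own tag. Platelet and erythroid genes had 2 of 4 lower and 0 higher, with a summed level of 463 and 301 CPM and as the most abundant gene Hbb-bs, which was counted in 5 cells of all 4 mice. The part of these markers in the result was not tested. The core macrophage list had 0 of 17 tested genes past 1.5-fold in either direction and a median ratio of 1.01.

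The higher genes of the Kupffer gate included Cd209f and Cd209g, C-type lectins. Cd209f went from 16.9 to 73.5 CPM, 4.35 (3.85 to 4.92), and from 12.5% to 29.0% of cells with a count. Cd209g went from 2.68 to 13 CPM, 4.86 (3.59 to 6.69). The sequences around the starts of Cd209f and Cd209g are in large part near copies of each other, so counts of a single copy may be uncertain. Ttc39c was at 6.14 and 22.1 CPM, 3.60 (2.93 to 4.45). Trem2, a lipid receptor of macrophages, was at 60.7 and 119 CPM, 1.96 (1.83 to 2.11), and Ltc4s, the leukotriene C4 synthase, at 81.4 and 176 CPM, 2.16 (2.03 to 2.29). Cx3cr1, the fractalkine receptor, was at 12.0 and 27.5 CPM (2.29) but in a similar share of cells, 14.5% and 15.7%. Papss2, which makes the sulfate donor of sulfotransferases, was among the lower genes at 8.67 and 2.90 CPM, 0.334 (0.243 to 0.455), and its ratio was 0.601 in the cells without hepatocyte list counts.

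Lipid genes of the gate moved in part. Of 15 tested LXR target and lipid handling genes 2 were higher and 0 lower, with a median ratio of 1.16: Scd1, a fatty acid desaturase, at 45.5 and 92.1 CPM (2.02) and Abca1, a cholesterol exporter, at 119 and 186 CPM (1.57). Apoe was at 25803 and 30098 CPM, 1.17. The lipid-associated macrophage list showed no common direction, with 2 higher and 2 lower of 13 and a median ratio of 1.04. Beside Trem2 the higher member was Mmp12, on 16 and 84 counts in 2 and 6 cells, and the lower members were Itgax (0.616, but 0.679 with at least 90% of hashtag counts from the own tag, 0.691 in the gate on 2 genes and 0.409 in the cells without hepatocyte list counts) and Spp1, whose ratio of 0.577 rests on 1 control cell with 42.5% of its counts and was 0.959 with the same hashtag limit and 2.06 in the cells without hepatocyte list counts. Glucocorticoid-induced genes had 3 of 9 higher and 0 lower, with a median ratio of 1.18, namely Per1 (20.7 and 40.1 CPM, 1.94), Ddit4 (2.11) and Mt2 (53 and 88 counts, 1.67, or 6.91 in the cells without hepatocyte list counts).

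Hepatocyte mRNA was more abundant in the Kupffer gate of the Cre mouse. Of the hepatocyte list 10 of 12 tested genes were higher and 0 lower, with a median ratio of 2.27, and the summed level was 941 CPM in the control mouse and 1384 CPM in the Cre mouse. The most abundant member was Trf, transferrin, which macrophages also express, at 816 and 1094 CPM (1.34), and Alb, the defining hepatocyte gene, had 0 counts in the gate in both mice. Alb was counted in 3 cells of all 4 mice with a lowest value of 160, so its 0 need not mean absence. Secreted liver proteins were 7 of the 10 higher genes that the naming rule gave: Serpina1b (4.47), Serpina1a (3.32), Gc, the vitamin D-binding protein (2.94), Apoc3 (2.88), Serpina3k (2.84), Ttr, the thyroxine carrier (2.73), and Apoa2 (2.58). Ttr was at 19.9 and 54.1 CPM, in 16.6% and 32.1% of cells. The Serpina1 and Serpina3 genes are families of close copies, so which copy was counted is uncertain.

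In an alternative chosen after these values were seen, Kupffer gate cells with any count of a hepatocyte list gene other than Trf were left out, which kept 304 of 785 and 138 of 858 cells. Hepatocyte mRNA was not removed in full by this, since Gc and Apoc3, which are not on the list, were at ratios of 4.60 and 4.21 in the cells kept. In them 484 of 7655 tested genes were lower (6.32%) and 414 higher (5.41%). The interferon gamma-induced list had 15 of 36 lower and a median ratio of 0.735, and MHC class II 6 of 8 lower and 0.512. The filter took a larger share of the cells of the Cre mouse, so the sets kept may differ in other ways. Proliferation genes, with 2 of 11 higher and a median ratio of 1.31 in the whole gate, had 5 of 6 lower and 0.437 in the cells kept. The part of hepatocyte mRNA in the other differences was thus not tested. Il1b was at 1788 and 729 CPM (0.408), Marco at a ratio of 0.352, Pf4 at 3.07 and Trem2 at 1.77. Serpina3g had a ratio of 0.221, with 53 counts in 9 cells of the Cre mouse and 41.5% of them in 1 cell, and Cd209f was at 21.3 and 59.6 CPM (2.80). The chemokines Ccl4 (0.967), Ccl12 (0.872) and Cxcl13 (0.706) were not past 1.5-fold in these cells.

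Cd209a-positive cells of the Cre mouse had less mRNA of interferon-induced chemokines and GTPases, while their MHC class II genes were level. Of 7192 genes tested 429 were higher (5.96%) and 347 lower (4.82%), with a median ratio of 1.01. With TMM scaling the balance turned, to 299 higher and 445 lower. Cxcl9, a T cell chemokine induced by interferon gamma, was at 288 and 23.5 CPM, 0.0814 (0.0642 to 0.102), in 29 and 8 cells, and its ratio was 0.0332 without cells of more than 1 gate and 0.0470 with at least 90% of hashtag counts from the own tag. Cxcl10 was at 225 and 24.9 CPM, 0.111 (0.0878 to 0.138), in 28 and 8 cells, and 1 cell held 39.2% of its counts in the control mouse. Its ratio was 0.207 in cells with at least 90% of hashtag counts from their own tag and 0.0683 in the gate on 2 genes. Ly6i, a Ly6 family surface protein gene, was at 126 and 14.8 CPM, 0.118, in 43 and 14 cells. Ccl5 was at 246 and 57.3 CPM (0.233) and Ccl4 at 185 and 31.3 CPM (0.169), but 61.2% of the Ccl4 counts of the control mouse lay in 1 cell, and the ratio was 0.583 with the same hashtag limit and 0.416 in the gate on 2 genes.

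The interferon gamma-induced list had 19 of 34 tested genes lower and 0 higher in Cd209a-positive cells, with a median ratio of 0.621, or 0.705 in cells with at least 90% of hashtag counts from their own tag. Irf1 was at 183 and 97.9 CPM, 0.536 (0.471 to 0.609), Gbp5 at 45.9 and 13.6 CPM (0.297) and Gbp2b at 98.6 and 32.1 CPM (0.326). The type I list had 1 higher and 5 lower of 20 and a median ratio of 0.913. MHC class II had 0 of 10 genes past 1.5-fold in Cd209a-positive cells, a median ratio of 1.03 and a summed level of 50198 and 52151 CPM, and Ciita was at 197 and 176 CPM (0.890). The same class II list was thus lower in Clec4f-positive cells and near level in Cd209a-positive cells, and the difference between the gates was not tested.

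The dendritic cell genes of the Cd209a gate were near level, with 1 of 13 tested higher (Ifitm1, 1.88), 0 lower and a median ratio of 1.12. Cd209a, by which the gate is set, is on this list, and its own ratio is that median. Clec10a, a galactose-binding lectin, was at 182 and 210 CPM and Mgl2, its close relative, at 196 and 232 CPM. Markers of cDC1, a dendritic cell type that presents antigen to CD8 T cells, and of mature dendritic cells had 3 of 8 tested lower and 1 higher. The lower genes were those of cDC1: Clec9a was at 39.6 and 15.4 CPM (0.388), Irf8 at 247 and 143 CPM (0.581, and 0.708 with at least 90% of hashtag counts from the own tag) and Xcr1 at a ratio of 0.394 that became 0.821 without cells of more than 1 gate. Cadm1, also a cDC1 marker, stood at 51.7 and 66.0 CPM (1.28, and 2.41 without cells of more than 1 gate), and the higher gene was Ccl17, a chemokine of mature dendritic cells (1.88), counted in 16 and 11 cells. The higher genes that the naming rule gave were Lifr (6.71 and 29.0 CPM, 4.32), Egr3 (3.65), Plpp3 (3.28), Mettl14 (7.14 and 22.3 CPM, 3.12) and Slpi (2.81). For Plpp3 1 cell held 72.1% of the Cre mouse's counts, and the ratio was 0.929 in cells with at most 10% mitochondrial counts and 5.36 with at least 90% of hashtag counts from the own tag. Slpi had 128 counts in the control mouse, 67.2% of them in 1 cell, and 269 in the Cre mouse. Its ratio was 1.41 with at least 90% of hashtag counts from the own tag, 1.08 without cells of more than 1 gate and 5.99 in the gate on 2 genes. Neutrophil, liver endothelial and B cell markers moved with this gate, with 7 of 9 mature neutrophil genes higher (summed level 437 and 1567 CPM) and 5 of 7 liver endothelial genes higher (150 and 306 CPM). The most abundant neutrophil genes were S100a8, at 167 and 527 CPM, and S100a9, at 89.8 and 593 CPM in 1 and 8 cells. Of the endothelial genes Clec4g was at 36.3 and 76.2 CPM, with 80.4% and 90.5% of its counts in 1 cell of each mouse, and Stab2 at 37.2 and 25.2 CPM. B and plasma cell genes had 2 of 3 tested higher and 0 lower, with a median ratio of 2.20 and a summed level of 130 and 313 CPM. The most abundant was Ighm, at 108 and 126 CPM, while Cd79b was at 16.9 and 37.1 CPM and Igkc had 335 counts in 4 cells of the Cre mouse and 0 in the control mouse. T and NK cell genes had 3 of 6 lower and 1 higher, and hepatocyte genes 2 of 4 higher. The part of these markers in the result was not tested.

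Cxcr2-positive cells of the Cre mouse held more neutrophil mRNA and less interferon gamma-induced and MHC class II mRNA. Of 6866 genes tested 584 were higher (8.51%) and 390 lower (5.68%), with a median ratio of 1.02. As a mean of the CPM of single cells the balance turned, to 682 higher and 974 lower. Of the mature neutrophil list 13 of 15 were higher and 0 lower, with a median ratio of 1.86 and a summed level of 19102 CPM in the control mouse and 38400 CPM in the Cre mouse. Cxcr2, by whose count these cells were chosen, was itself at 396 and 732 CPM (1.85), so the values of this list do not stand apart from that choice. S100a9 was at 8857 and 17495 CPM (1.98), S100a8 at 6189 and 12473 CPM (2.02), Mmp9, a granule collagenase, at 164 and 391 CPM (2.38) and Retnlg at 1563 and 4019 CPM, 2.57 (2.49 to 2.65). As a mean of the CPM of single cells S100a9 was at 1.39 and S100a8 at 1.45. The other higher genes that the rule gave were A530064D06Rik (4.08), Ets1 (3.85), Isg20 (3.04) and Ifitm1 (2.56). The lower genes were Serpina3f (56.4 and 3.22 CPM, 0.0572), Ly6i (174 and 15.5 CPM, 0.0893), F10, coagulation factor X (0.115), Serpina3g (198 and 25.2 CPM, 0.127) and Cxcl9, at 304 and 59.5 CPM (0.196), 30.1% of whose control counts lay in 1 cell. With at least 90% of hashtag counts from the own tag the ratio was 0.0378 for Ly6i, 0.116 for Cxcl9 and 7.36 for A530064D06Rik. As a mean of the CPM of single cells it was 0.174 for Ly6i and 0.192 for F10, and without cells of more than 1 gate 0.0632 for F10 and 0 for Serpina3f.

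Interferon gamma-induced genes were lower there as well, with 18 of 37 lower and 1 higher in Cxcr2-positive cells, with a median ratio of 0.669. Gbp2b was at 242 and 67.4 CPM (0.278, or 0.160 without cells of more than 1 gate) and Ciita at 122 and 44.8 CPM (0.368). The higher member was Cxcl10, at 143 and 237 CPM, with 31.6% of the Cre mouse's counts in 1 cell. Its ratio was 1.36 as a mean of single cells, 1.47 without cells of more than 1 gate and 2.65 in the gate on 2 genes. MHC class II had 8 of 10 lower and a median ratio of 0.521, or 0.395 as a mean of single cells. The type I list had 8 of 19 higher and a median ratio of 1.33. Markers of other cell types moved with this gate. Of the T and NK list the 1 tested gene was higher (15.8), with Cd3d at 8 and 124 counts and Trac at 0 and 53 counts. Cd8a had 79 and 12 counts, 98.7% of the former in 1 cell. B and plasma cell genes had 1 of 3 tested lower and 0 higher, with a summed level of 346 and 96.4 CPM. The cDC1 and mature dendritic cell list had 5 of 9 tested genes lower and 0 higher, with a summed level of 1364 and 562 CPM. Its most abundant member in the control mouse was Ccl17, at 385 and 15.2 CPM with 53.6% of the control counts in 1 cell, and Irf8 was at 341 and 230 CPM. Liver endothelial genes had 7 of 9 higher and 0 lower, with a median ratio of 3.28 and a summed level of 226 and 503 CPM. The most abundant over both mice was Stab2, at 82.0 and 92.3 CPM, while Clec4g was at 41.7 and 99.0 CPM with 93.1% of its control counts in 1 cell. Without cells of more than 1 gate the Stab2 ratio was 38 and that of Clec4g 86.5. The hepatocyte list had 4 of 6 higher and 0 lower, with a summed level of 914 and 1297 CPM, Trf as its most abundant gene (1.22) and Alb at 0 counts, which need not mean absence. Their part in the result was not tested. Since more than 1 in 4 of these cells carried Clec4f in either mouse, macrophage and neutrophil mRNA are mixed in these values.

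A narrower set, chosen after the data were seen, took cells with Cxcr2 and S100a9 counts and no Clec4f or Cd209a count, 106 in the control mouse and 180 in the Cre mouse. There 146 of 1787 tested genes were higher (8.17%) and 154 lower (8.62%). Mature neutrophil genes were near level in it, with 1 of 15 higher and a median ratio of 1.09, S100a9 at a ratio of 1.09 and Retnlg at 10741 and 15427 CPM (1.44). S100a9, by whose count the cells were chosen, is on this list, and its ratio is also the list median. S100a8 and Mmp9, which were not used in the choice, were at 1.13 and 1.35. The interferon gamma-induced list had 7 of 16 lower, 1 higher and a median ratio of 0.721. MHC class II had 5 of 5 tested genes lower and a median ratio of 0.0788, against 0.521 in the whole gate, but Cd74 was counted in 7 control cells, 1 of which held 41.9% of its counts. Ly6i, at 0.0887, came from 8 control cells, 1 of them with 63.2% of the counts. Ets1 (1.63), Isg20 (1.86) and A530064D06Rik (2.85) had smaller ratios than in the whole gate, and Ifitm1 was at 1.21. Core macrophage genes had 5 of 10 lower and 0 higher in the set (median 0.703) and complement genes 4 of 7 lower and 0 higher (0.404). Liver endothelial genes had 2 of 2 tested higher (median 21.6), with Clec4g at 3 and 159 counts in 2 and 10 cells. The part of these markers in the result was not tested.

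Over all cells of the ND mice 605 of 12723 tested genes were higher (4.76%) and 415 lower (3.26%) in the Cre mouse, with a median ratio of 1.03. These counts were 523 and 477 with TMM scaling, and 640 and 266 with compartments weighted as in the control mouse. Over all cells the naming rule kept only genes with the same direction in every gate where they had at least 50 counts. That agreement between gates was thus set by the rule and is not a result. The lower genes that the rule gave were led by Ly6i, at 204 and 35.3 CPM, 0.173 (0.162 to 0.185). Beside Lyz2 they were Serpina3g (106 and 26 CPM, 0.246), Serpina3f (0.253), Cxcl9 (221 and 57.8 CPM, 0.262), Ccl5 (496 and 191 CPM, 0.384), Gbp5 (0.397), Ly6a, the gene of Sca-1 (419 and 174 CPM, 0.415), Tgtp2 (0.436) and Gbp2b (0.451). Most of these are induced by interferons. As a whole the interferon gamma-induced list had 21 of 39 lower and 0 higher, with a median ratio of 0.631, and the type I list 1 lower and 1 higher of 24, with a median ratio of 1.12. MHC class II had 5 of 10 lower and a median ratio of 0.664.

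The higher genes over all cells were Cd209f (10.4 and 51.7 CPM, 4.97), Retnlg (173 and 500.2 CPM, 2.89), Crip2 (48.5 and 118 CPM, 2.44), Ltc4s (54.1 and 128 CPM, 2.37), Pf4 (89.4 and 208 CPM, 2.32) and the liver genes Serpina3k (3.35), Ahsg (3.02), Apoa2 (2.99), Ttr (2.94) and Serpina1c (2.63). The hepatocyte list had 11 of 13 higher and 0 lower over all cells, and its summed level was 712 and 1142 CPM, most of it Trf. Alb had 197 counts, all in 1 cell outside the gates, and whether that cell is a hepatocyte doublet cannot be told apart from a matter of annotation. The part of hepatocyte mRNA in these differences was not tested.

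**Figure D3:**
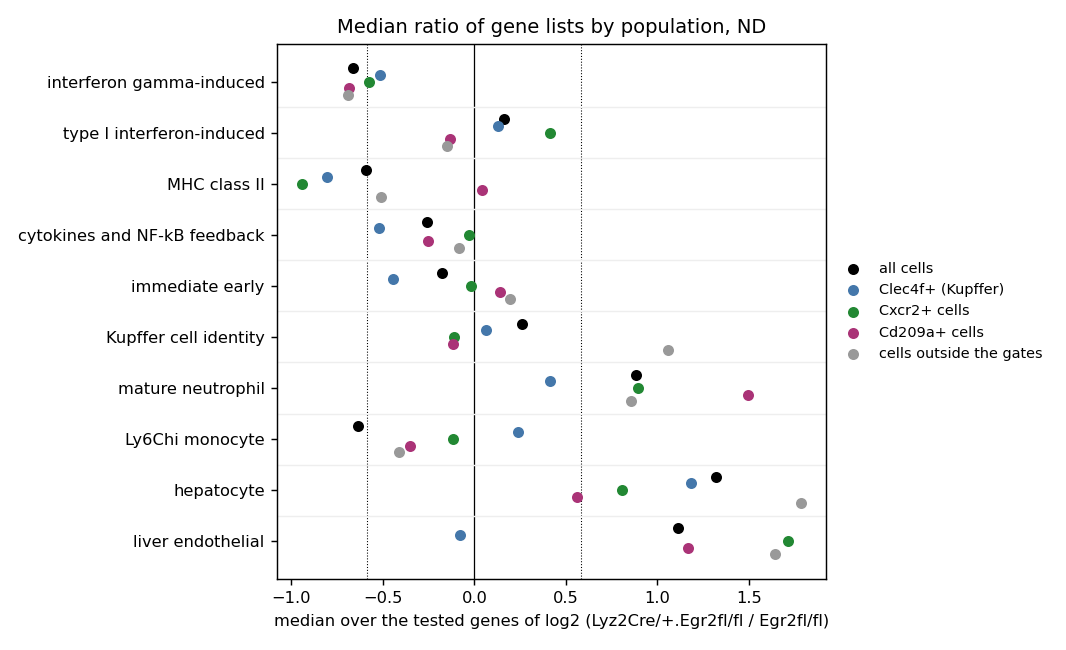
Median of the tested genes of 10 gene lists in each population of the ND mice, as log2 of the Cre over the control mouse, with dotted lines at 1.5-fold. As ratios, interferon gamma-induced medians lie between 0.620 and 0.699, while MHC class II runs from 0.521 in Cxcr2-positive cells to 1.03 in Cd209a-positive cells.

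Cells outside the gates, 587 in the control mouse and 359 in the Cre mouse, had 742 of 8906 tested genes higher (8.33%) and 426 lower (4.78%). The interferon gamma-induced list had 22 of 38 lower there and a median ratio of 0.620, with Gbp2b at 40.9 and 3.32 CPM, 0.0813 (0.0450 to 0.136), Cxcl10 at 420 and 78.6 CPM (0.187) and Ciita at 162 and 80.1 CPM (0.495). The Gbp2b ratio was 0.136 as a mean of the CPM of single cells, and that of Cxcl10 0.297 with at least 90% of hashtag counts from the own tag. Type I genes had 1 higher and 6 lower of 22 and a median ratio of 0.901, and MHC class II 4 of 10 lower and 0.702. The median of the interferon gamma-induced list was thus below 1 in each population examined, Clec4f-positive or not. These are not separate sightings, since the list was written after values of its genes had been seen. The populations also share cells, with 88 and 94 of the Cxcr2-positive cells in another gate. The mixed list of interferon-stimulated genes had no common direction, with medians from 0.703 outside the gates to 1.33 in Cxcr2-positive cells.

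The make-up of the cells outside the gates also differed. Liver endothelial genes had 10 of 10 higher and a summed level of 612 and 1877 CPM, led by Clec4g, a sinusoidal lectin (148 and 503 CPM, 3.39), which was counted in 4.09% and 10.9% of the cells, and including Kdr, the main VEGF receptor (39.6 and 138 CPM). Kupffer cell identity genes had 14 of 18 higher and 1 lower there, with a median ratio of 2.08 and a summed level of 1119 and 2053 CPM. The most abundant were Hpgd, at 282 and 478 CPM (1.69, or 1.46 as a mean of the CPM of single cells), and Id3, at 279 and 537 CPM, while Cd5l was at 11.1 and 58.9 CPM and Clec4f, by which the gate is set, at 0. Ly6Chi monocyte genes had 2 of 10 lower there and a summed level of 5660 and 4278 CPM, most of it Plac8. Ly6c2 was at 802 and 568 CPM (0.709) and Ccr2, the receptor that lets monocytes leave the marrow, at 572 and 438 CPM (0.766). Both were within 1.5-fold, while Vcan was at 22.5 and 7.75 CPM (0.344). Over all cells the same list had 6 of 10 lower and a summed level of 2276 and 1494 CPM. With each compartment weighted as in the control mouse Ly6c2 was at 0.749, Ccr2 at 0.778 and Plac8 at 0.763, within 1.5-fold. T and NK cell genes, which come from cells that the sort was meant to remove, had 5 lower and 1 higher of 11 over all cells. Their summed level was 264 and 153 CPM and the most abundant was Gzma, a granzyme of NK cells (121 and 47.9 CPM), while Cd3e, a T cell receptor chain, was at 1.94 and 1.98 CPM. Other T cell genes took both directions, with Trac at 7.87 and 11.7 CPM (1.49), Cd3g at 346 and 480 counts and Cd8a at 147 and 49 counts. With the same weights the Gzma ratio was 0.600 and the Trac ratio 2.00. Mature neutrophil genes had 7 of 11 higher and 1 lower outside the gates and 11 of 15 higher over all cells, where the cDC1 and mature dendritic cell list had 5 of 11 lower and liver endothelial genes 8 of 10 higher. B and plasma cell genes had 4 of 8 higher and 1 lower outside the gates, most of their sum from Igkc, with 66.7% and 41.3% of its counts in 1 cell of each mouse. The hepatocyte list had 6 of 8 tested genes higher and 0 lower there, with a median ratio of 3.44 and a summed level of 326 and 519 CPM. The part of these other cell types in the results over all cells and outside the gates was not tested.

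On CDA-HFD the same pair of genotypes did not show the interferon gamma-induced difference. A protocol label gives for the Cre mouse on that diet a tag number other than the one in the matrix. The matrix was followed, and the CDA-HFD values rest on that assignment. The medians of that list there were 0.953 over all cells, 0.924 in the Kupffer gate, 0.981 in Cxcr2-positive cells, 0.952 in Cd209a-positive cells and 0.944 outside the gates. In the Kupffer gate MHC class II had a median of 0.662 on CDA-HFD, but that gate held 40 and 67 cells. Type I medians on CDA-HFD were 1.33 over all cells and 1.20 in the Kupffer gate. Egr2 was at 49.4 and 18.2 CPM there (0.369), and Lyz2 had a ratio of 0.533, so Egr2 and Lyz2 were lower on both diets. The difference between the diets was not tested, since each has 1 mouse per genotype.

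Of the 10 lower genes named over all ND cells, 6 had a ratio below 1 on CDA-HFD and 1 was past 1.5-fold, which was Lyz2, beside 1.77% of all 14927 genes tested on that diet. Of the higher genes 9 could be tested there, 7 were above 1 and 2 past 1.5-fold, Crip2 (1.62) and Serpina1c (1.55), beside 3.42%. In the Kupffer gate of the CDA-HFD mice 5 of the named lower genes could be tested, and each was below 1, from 0.656 to 0.980, with 2 past 1.5-fold beside 6.72% of genes. Il1b was at 0.980 and H2-Eb1 at 0.656. 0 of the 10 named higher Kupffer genes reached the count minimum there, beside 8.53% of tested genes higher. Of the named Cxcr2 gate genes 3 of 5 higher ones were above 1 on CDA-HFD, 1 past 1.5-fold beside 4.29% of genes, and 3 of 4 lower ones that could be tested were below 1, 0 past 1.5-fold beside 2.81%. Of the named Cd209a gate genes 3 of 4 higher ones were above 1, 1 past 1.5-fold beside 3.05%, and 3 of 5 lower ones below 1, 2 past 1.5-fold beside 2.52%. Marco, lower on ND, had a ratio of 3.99 in the few Clec4f-positive cells of the CDA-HFD mice.

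Promoter windows of the named genes were read because their interferon-induced members moved together. RefSeq windows of 300 bases around gene starts on GRCm38.p6 were searched on both strands for TTCNNNGAA (the gamma-activated site), GAAANNGAAA (the interferon-stimulated response element) and GCGNGGGCG (the Egr consensus). Of all 27025 genes with a window, 9.55% held the first, 3.99% the second and 6.27% the third. Among the 8277 genes with a window that were tested in the Kupffer gate these shares were 8.35%, 4.24% and 12.0%. The interferon gamma-induced list had a window for 27 of its 42 genes, of which 10 (37.0%) held TTCNNNGAA, 14 (51.9%) GAAANNGAAA and 1 (3.70%) the Egr consensus. The type I list had 19 windows, of which 12 (63.2%) held GAAANNGAAA and 4 (21.1%) TTCNNNGAA. The MHC class II list had 7, of which 0 held GAAANNGAAA and 1 TTCNNNGAA. Of the 18 named lower genes 13 had a window, and 4 (30.8%) held the first motif, 4 (30.8%) the second and 0 the third. Of the 25 named higher genes 18 had one, and 2 of these (11.1%), Crip2 and Lifr, held the Egr consensus. The named genes of both directions come from 4 populations, and a share over tested genes was taken for the Kupffer gate only. A match is a description of letters and not a measured binding site.

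The windows of 3 lower genes with matches show where the letters lie, with matches of either interferon motif in capitals. They are those of Serpina3g at chr12:104235897-104236196 on the plus strand, Gbp5 at chr3:142496684-142496983 on the plus strand and Tgtp2 at chr11:49064163-49064462 on the minus strand, each written 5′ to 3′ along its gene.
Serpina3g: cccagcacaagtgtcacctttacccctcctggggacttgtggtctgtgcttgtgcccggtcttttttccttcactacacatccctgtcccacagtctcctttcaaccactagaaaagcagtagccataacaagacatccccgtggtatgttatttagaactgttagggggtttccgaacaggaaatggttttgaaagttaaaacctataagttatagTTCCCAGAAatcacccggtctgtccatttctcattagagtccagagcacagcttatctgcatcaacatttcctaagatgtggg
Gbp5: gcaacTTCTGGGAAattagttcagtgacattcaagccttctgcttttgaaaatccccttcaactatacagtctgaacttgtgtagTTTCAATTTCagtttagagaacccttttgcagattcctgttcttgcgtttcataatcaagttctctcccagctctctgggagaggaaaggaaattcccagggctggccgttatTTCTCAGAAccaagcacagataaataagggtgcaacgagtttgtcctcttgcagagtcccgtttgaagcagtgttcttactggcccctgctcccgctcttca
Tgtp2: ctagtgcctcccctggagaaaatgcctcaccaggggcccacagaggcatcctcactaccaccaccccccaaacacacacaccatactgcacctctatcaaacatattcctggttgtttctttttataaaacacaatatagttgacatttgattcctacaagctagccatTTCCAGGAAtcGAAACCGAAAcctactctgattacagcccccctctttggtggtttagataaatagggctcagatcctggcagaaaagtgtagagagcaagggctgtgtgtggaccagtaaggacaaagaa
Serpina3g holds 1 match of TTCNNNGAA, Gbp5 holds 2 and 1 of the response element, and Tgtp2 holds 1 of each within a short stretch.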

How the data were processed

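Counts per gene and cell were deposited by the authors, who made them from BD Rhapsody libraries (TAS-Seq), mapped to GRCm38, and assigned cells to mice by hashtags. Processing tools in the labels are Seurat 4.1.1 and R 4.2.1. The deposited counts were used as given. The labels do not state whether they are reads or molecules, and low values of 27 genes are set to 0 in them. Of 16786 barcodes, 1392 called doublets were left out. Counts were summed per mouse and population and scaled to CPM with exact Poisson and binomial intervals in Python 3.11.15 (numpy 2.4.6, scipy 1.17.1, pandas 2.3.3, matplotlib 3.10.9). The steps were tested on simulated data. With 1 mouse per group the ND comparison allows no test across mice, and no model over both diets was fitted. Genes were named by a rule: the 10 higher and 10 lower (5 and 5 for Cxcr2-positive and Cd209a-positive cells) whose interval limit nearest 1 lay farthest from it, among genes with at least 100 counts (500 over all cells) and a count in at least 10% of cells of 1 mouse (5% over all cells), with the same direction in CPM ratio, mean CPM per cell and share of cells. For all cells the direction also had to hold in each gate where the gene had at least 50 counts. Egr2, Lyz2, the Egr and Nab genes, Itgax, Siglecf and list members were named in addition, and any other gene in the text was chosen after its values were seen. Members and lists were chosen with earlier results of these data known. Alternatives changed the mitochondrial limit, hashtag purity, gates, count minimum, fold, depth and scaling, the last also with edgeR 4.0.16 (TMM).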

Additional observations from a re-analysis of the deposited data

Results flagged for a closer look

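Cxcl9, the interferon gamma-induced chemokine gene, took opposite directions on the 2 diets in Cd209a-positive cells. The ratio of the Lyz2Cre/+.Egr2fl/fl to the Egr2fl/fl mouse was 0.0814 on ND and 1.53 on CDA-HFD, with 1 mouse per genotype and diet. On ND it rests on 29 cells of the control mouse and 8 of the Cre mouse. The difference was not tested.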

How the results depend on the processing

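Of 1537 values of named genes other than Egr2 under the alternatives, over 210 genes by population, 1139 stayed within their counting interval, 393 moved beyond it and 5 that were past 1.5-fold changed direction. A further 20 that were within 1.5-fold lay on the other side of 1. The 5 were S100a9 in the Kupffer gate (0.579 without cells of more than 1 gate, 0 in cells without hepatocyte list counts), Plpp3 in Cd209a-positive cells (0.929 with at most 10% mitochondrial counts) and, in Kupffer gate cells without hepatocyte list counts, an alternative added after seeing the data, Osm (0.792) and Spp1 (2.06). S100a8 in the Kupffer gate was at 0.892 and 0.846 with the settings given for S100a9. The median ratio of interferon gamma-induced genes ran from 0.612 to 0.663 over all cells and from 0.673 to 0.737 in the Kupffer gate, from 0.639 to 0.721 in Cxcr2-positive and from 0.595 to 0.705 in Cd209a-positive cells, and that of MHC class II from 0.609 to 0.698 over all cells and from 0.512 to 0.573 in the Kupffer gate, from 0.0788 in the added neutrophil-like set to 0.525 in Cxcr2-positive cells and from 0.969 to 1.08 in Cd209a-positive cells.

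Counts of genes past the fold followed the filter by construction. With at least 500 counts they were 177 higher and 145 lower over all cells, 87 and 88 in the Kupffer gate, 99 and 63 in Cxcr2-positive cells and 24 and 39 in Cd209a-positive cells. With at least 20 counts they were 1587 and 1180, 1345 and 857, 1713 and 1299, and 1465 and 1180 in that order, and at 2-fold 200 and 93, 95 and 53, 148 and 97, and 81 and 90. The lower count was 266 over all cells with compartments weighted as in the control mouse, 484 in Kupffer gate cells without hepatocyte list counts, and 974 in Cxcr2-positive and 525 in Cd209a-positive cells with mean CPM per cell. With TMM factors the counts were 523 higher and 477 lower over all cells, 333 and 318 in the Kupffer gate, 519 and 467 in Cxcr2-positive and 299 and 445 in Cd209a-positive cells. The added neutrophil-like set, with fewer genes tested, had 146 higher and 154 lower. The Egr2 ratio was 0.568 over all cells with weighted compartments, 0.288 in the Kupffer gate with mean CPM per cell, 0.880 in the neutrophil-like set (2 and 3 counts), and 1.17 (own hashtag at least 90%) and 0.504 (mean CPM per cell) outside the gates. The share difference of the Kupffer gate was 12.6 points with own hashtag at least 90% and 11.9 at 5000 counts per cell. That of Cxcr2-positive cells was 1.55 at 5000 counts, a setting that left out 101 and 163 of them as too shallow. Where construction does not give it, the cause was not tested. Depth limits genes with few counts, such as Ifng with 37 and 22 counts over all cells.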

Other observations

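Outside the gates Ighm, the IgM heavy chain, stood out through 1 cell. It was at 159 CPM in the Egr2fl/fl mouse and 1551 CPM in the Lyz2Cre/+.Egr2fl/fl mouse on ND, and 1 cell held 91.0% of the latter's 7007 counts. The Ighm ratio was 9.78, or 2.92 as a mean of the CPM of single cells and 14.8 with at least 90% of hashtag counts from the own tag. The heat shock list had a median ratio of 0.997 over all ND cells and 0.585 on CDA-HFD, and its difference between the diets was not tested. The iron and heme list of the Kupffer gate had 0 of 11 tested genes past 1.5-fold and a median ratio of 0.941, and the complement list 1 of 13 lower with a median ratio of 1.04.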
